A study of Mus musculus with 6 samples.

Results

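Long intergenic noncoding RNAs (lincRNAs) are transcripts annotated as having no protein product and as lying outside protein-coding genes. The set described here held every gene of the lincRNA type in GENCODE M21, a mouse annotation, that had a transcript in the deposited files, except Malat1, Neat1, Miat, Rmst, Pantr1, Snhg11 and H19. Of the 5854 lincRNA genes of that annotation, 1623 were in the files. Of these, 6 were on the list of exceptions, which left 1617 genes of the 37086 genes matched in all. Each gene was represented by the transcript with most reads over all libraries, chosen among 2174 transcripts, and 1316 of the genes had a single transcript in the files.

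The RNA came from wild-type C57BL/6J mouse embryos of unknown sex at embryonic day 14.5. Dorsal root ganglia, which hold the cell bodies of sensory neurons together with their glia, were collected from 18 embryos and combined, and their total RNA was diluted from 1 stock (100 ng per µl). SMARTer kits for low RNA input served to make cDNA, and their primer anneals to poly(A) tails. High-volume reactions took the RNA in 9 µl (HV kit) and low-volume reactions in 1 µl (another kit of the series), so volume and kit cannot be told apart. Inputs were 3, 10 and 30 ng for both volumes, and each of the 6 combinations had a single library. Because all 6 repeat the same RNA, the errors and p-values below describe the spread of the method and not that of animals. In such bulk RNA, fewer cells of a type and less RNA per cell cannot be told apart.

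The chosen transcripts of all genes held 14160397 to 31524210 reads, called tags, per library, and the 3 ng library of each volume held fewest. The 3 ng libraries also stood apart in detecting fewer genes, as described below. Without them 187 lincRNA genes had a mean RPKM of at least 1, against 186 in all 6 libraries. The tissue label was checked against its marker genes. All 10 sensory neuron markers had a mean RPKM (tags divided by transcript length and by the library's total, the authors' scale) of at least 1, as did 6 of the 7 glial markers and all 10 markers of the nociceptor lineage. None of the 4 spinal cord markers reached 1, and their highest mean was 0.415. Other tissues were present too. Means were 244.9 to 3034 RPKM for 3 erythroid markers, 6.60 to 68.4 for 3 macrophage, 5.46 to 27.6 for 3 endothelial, 43.3 to 92.6 for 3 fibroblast and 2.99 to 47.3 for 4 muscle and cartilage markers. Their part in the lincRNA levels was not tested.

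LincRNAs are mostly transcribed by RNA polymerase II, and many are spliced and polyadenylated like mRNAs. Some act on chromatin or on nearby genes, some are host genes whose introns release small RNAs, and for most no function is known. Many start close to the promoter of a protein-coding gene and run away from it, an arrangement called divergent. Because they are often lowly expressed and often overlap other genes, their measured levels depend on what else is transcribed from the same bases.

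The sequences below show the 2 features of lincRNA genes that were searched for, a polyadenylation signal near the end and GC boxes between opposed starts. They begin with the last 60 bases of 4 of the 9 most abundant lincRNAs among those described below as separate. These 4 are not the highest in level: D930028M14Rik and 1810058I24Rik lie above all of them. Epb41l4aos lies above A330069E16Rik and Gm2694, and Snhg18 and Bvht lie above Gm2694. Capitals mark AATAAA and ATTAAA, the common polyadenylation signals. The ends lie at chr14:61625926-61625985 on the minus strand (Gm27010), chr13:84025297-84025356 on the minus strand (Gm17750), chr2:91238293-91238352 on the plus strand (A330069E16Rik) and chr8:87525493-87525552 on the plus strand (Gm2694), all on GRCm38 and in the last exon of the transcript.
Gm27010 end: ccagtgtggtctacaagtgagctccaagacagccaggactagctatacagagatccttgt
Gm17750 end: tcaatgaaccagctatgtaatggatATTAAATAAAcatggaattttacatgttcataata
A330069E16Rik end: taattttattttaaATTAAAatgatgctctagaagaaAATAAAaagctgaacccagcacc
Gm2694 end: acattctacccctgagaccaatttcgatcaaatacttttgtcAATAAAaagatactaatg
The last signal began 31 bases before the end in Gm17750, 23 in A330069E16Rik and 18 in Gm2694, while Gm27010 had no match in its last 50 bases.

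The next sequences run from the start of a protein-coding neighbour to 50 bases into the divergent lincRNA, read in the direction of the lincRNA, from RefSeq's promoter table for GRCm38.p6. Capitals mark GGGCGG or its reverse complement CCGCCC, the GC box. The first stretch, between Ddb2 and A330069E16Rik, is chr2:91236983-91237195 on the plus strand. The other stretch, between Sema5a and Snhg18, is chr15:32244613-32244809 on the minus strand.
Ddb2 to A330069E16Rik: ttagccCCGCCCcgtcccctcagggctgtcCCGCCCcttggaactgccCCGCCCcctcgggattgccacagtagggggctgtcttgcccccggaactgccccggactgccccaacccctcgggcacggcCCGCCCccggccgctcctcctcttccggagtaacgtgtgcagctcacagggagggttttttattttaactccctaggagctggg
Sema5a to Snhg18: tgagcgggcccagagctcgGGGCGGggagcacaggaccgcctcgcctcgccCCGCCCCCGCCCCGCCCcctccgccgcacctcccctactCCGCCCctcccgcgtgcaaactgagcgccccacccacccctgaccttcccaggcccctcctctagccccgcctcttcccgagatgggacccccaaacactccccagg
The Ddb2 stretch held 4 matches in 213 bases and the Sema5a stretch 5 matches in 197 bases. Both lincRNAs were more abundant than the protein-coding gene they face, as given below.

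Most lincRNA genes had no tags or were near the limit of detection in these poly(A)-primed libraries. No tag fell on 547 of the 1617 genes (33.8%), against 18.6% of the 21487 protein-coding genes. These shares were not adjusted for transcript length, and the median exonic length of the protein-coding genes was 2402 bases, against 1010 for lincRNAs. A count of 0 in all 6 libraries allows up to 3 tags, or 0.0199 RPKM for a transcript of the median exonic length of 1010 bases, as counting error alone. Tags were present in all 6 libraries for 324 genes and in 1 library only for 200. A mean RPKM of at least 1 was reached by 186 lincRNA genes (11.5%), against 11363 protein-coding genes (52.9%). Only 35 reached 10 RPKM and 3 reached 100. Among genes with any tag the median was 0.121 RPKM for lincRNAs and 2.45 RPKM for protein-coding genes.

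The label intergenic did not hold at the level of exons for many of the abundant genes. Of the 1617 genes, 390 shared exonic bases with another gene, and 105 of these (26.9%) had a mean of at least 1 RPKM. A further 118 shared no base but had more than 10% of their 50-base words in transcripts of other genes, and 10 of these reached 1 RPKM. The other 1109, called separate here, shared neither, and 71 of them (6.4%) reached 1 RPKM. The tags were taken not to be assigned by strand, so tags of overlapping genes cannot be told apart. Of the 105 abundant genes with shared bases, 76 shared them with a protein-coding gene, 72 of those on the opposite strand.

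The 15 lincRNA genes with the highest mean RPKM contained 11 that shared exonic bases, 8 of them with a protein-coding gene, and 4 separate genes. The highest was Gm42418, at 31565 ± 16194 RPKM (SD, n = 6 libraries). Its transcript shared 99.5% of its bases with other genes, the largest overlap being with the annotated ribosomal RNA gene CT010467.1. Gm17275, with a mean of 113.8 ± 27.3 RPKM, shared 638 of its 2550 bases with H3f3a, a histone H3 gene at 175 ± 20.02 RPKM. Gm26722 (76.2 ± 14.5 RPKM) shared 796 bases with Rbbp4, a histone-binding chromatin protein. Of Gm26882 (39.4 ± 4.76 RPKM), 97.5% lay within Morf4l1, a chromatin protein gene.

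Levels were therefore taken again over only those exons that shared no base with any other gene, called unshared exons here. Exons shared in part were left out whole. Among the genes that shared bases and had at least 1 RPKM, 57 had an unshared exon, and 32 of the 57 still had at least 1 RPKM there. Gm17275 had 113.8 RPKM over all exons and 0.485 ± 1.02 RPKM over its unshared exons, which spanned 1209 bases. Gm26722 went from 76.2 to 4.00 RPKM, and Gm16755, which shares bases with the mitochondrial ribosomal protein gene Mrpl12, from 39.8 to 3.74 RPKM. The unshared exons of Gm26582 (28.0 RPKM, sharing with G3bp2), Gm26735 (26.3 RPKM, sharing 98.8% with Sox4) and Tmem250-ps (36.2 RPKM) held no tags, although those of Gm26735 spanned only 33 bases and those of Gm26582 only 131. Snhg6, a host gene of small nucleolar RNAs, went the other way, from 86.9 ± 10.7 RPKM over all exons to 141 ± 24.04 RPKM over its unshared exons (192 bases). Counting unshared exons alone gave 116 lincRNA genes of at least 1 RPKM in place of 186. Genes without an unshared exon could not be measured in this way and are not among the 116.

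**Figure D1:**
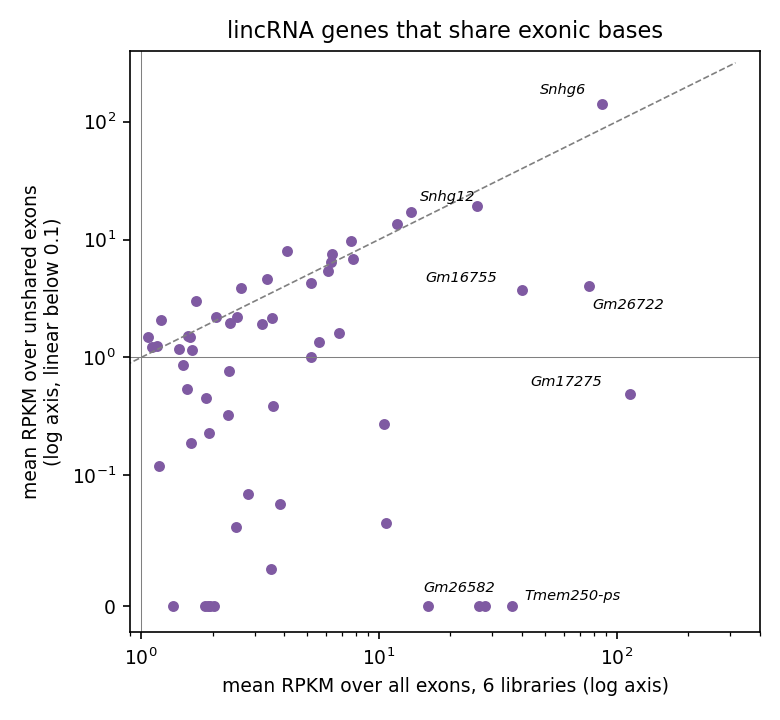
Mean RPKM over all exons (horizontal axis, log scale) against mean RPKM over exons that share no base with another gene (vertical axis, log scale, linear below 0.1), for the 57 lincRNA genes with shared bases, a mean of at least 1 RPKM and an unshared exon. The dashed line marks equal values and the grey lines 1 RPKM. Snhg6 lies above the dashed line, and Gm17275, Gm26722 and Gm16755 lie far below it.

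RefSeq placed some of these genes in another class. Of the 883 genes matched to a RefSeq gene, 833 were long noncoding and 29 protein-coding there. Of the 29, 6 had a mean of at least 1 RPKM, among them 1810058I24Rik, which RefSeq also lists as Stmp1, Tmem250-ps, and Dbpht2 at 3.66 ± 0.819 RPKM.

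The 9 separate lincRNA genes of at least 10 RPKM were detected in every library. D930028M14Rik, on chromosome 7 from 25152457 to 25156623 (plus strand, 3 exons), was the most abundant. Its RPKM was 170.1, 169.6 and 192.5 in the high-volume libraries of 3, 10 and 30 ng, and 200.3, 173.1 and 193.5 in the low-volume libraries. These values overlapped between volumes and spanned 2631 to 6561 tags. The gene lies within the body of Pou2f2, a POU-domain transcription factor gene whose own transcript was at 0.111 ± 0.0877 RPKM. Its introns were at 0.625 RPKM, 0.341% of its exons.

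1810058I24Rik, the RefSeq protein-coding gene named above (chromosome 6, 35252654 to 35263496, plus strand), had 48.7, 46.0 and 49.1 RPKM in the high-volume libraries of 3, 10 and 30 ng. The low-volume libraries gave 54.2, 48.2 and 50.03 RPKM. Its coefficient of variation of 5.55% was the lowest of the 71 separate genes of at least 1 RPKM, of which 3 were under 10% and 28 over 50%. Gm27010, whose end is shown above without a polyadenylation signal, had 47.2, 39.9 and 35.5 RPKM at 3, 10 and 30 ng in the high volume and 31.2, 45.5 and 33.6 RPKM in the low volume. Gm17750 had 41.8, 33.3 and 27.0 RPKM in the high volume and 48.4, 28.4 and 35.3 RPKM in the low volume. In Gm17750 the 3 ng library was the highest of each volume, while in Gm27010 it was the highest of the high volume and the lowest of the low volume.

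The other 5 separate genes of this level were Epb41l4aos (17.3 ± 6.10 RPKM), A330069E16Rik (14.8 ± 2.24), Snhg18 (14.4 ± 2.43), Bvht (11.7 ± 4.11) and Gm2694 (11.1 ± 1.04). Bvht, named Braveheart for its described role in heart lineage commitment, was at 19.7 RPKM in the high-volume 3 ng library and between 8.31 and 12.2 RPKM in the other 5. Gm2694 lay between 9.12 and 11.9 RPKM in all 6 libraries. A330102I10Rik, at a mean of 5.74 ± 3.80 RPKM, showed the widest split between the 3 ng libraries among the 16 genes plotted below. It had 2 tags (0.189 RPKM) in the high-volume and 137 tags (11.9 RPKM) in the low-volume 3 ng library, against 4.34 to 7.02 RPKM in the other 4.

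**Figure D2:**
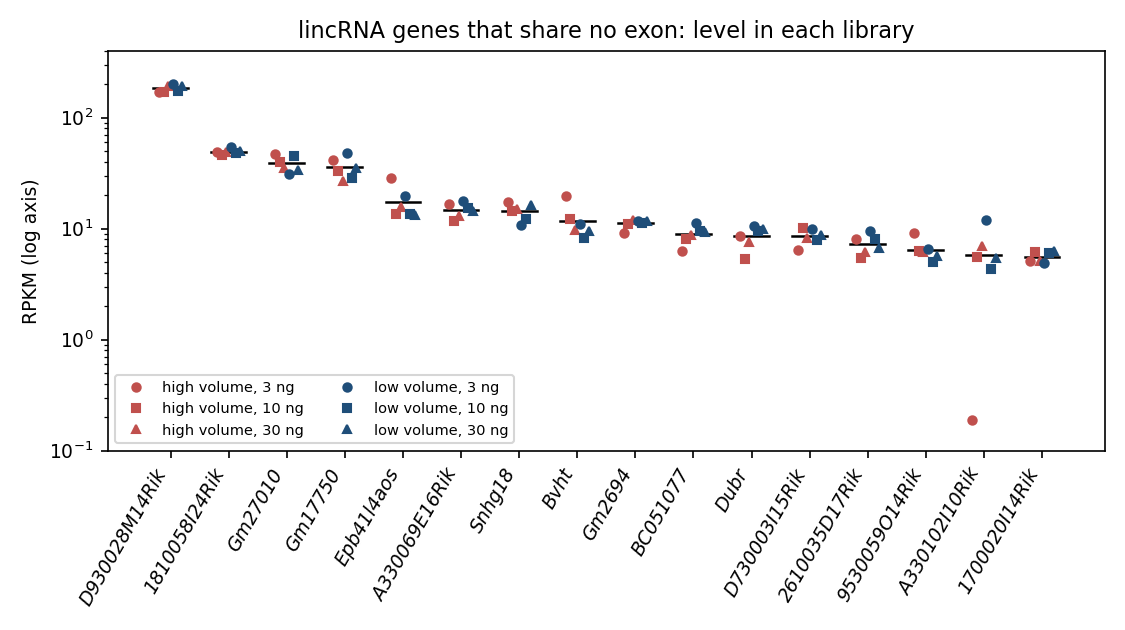
RPKM (vertical axis, log scale) of the 16 separate lincRNA genes with a mean of at least 5 RPKM in each of the 6 libraries. Red symbols are high-volume and blue low-volume libraries, circles 3 ng, squares 10 ng and triangles 30 ng, and the black bar is the mean. The point furthest from the others of its gene is the high-volume 3 ng library of A330102I10Rik at 0.189 RPKM. Smaller spreads are seen in Epb41l4aos (13.2 to 28.7 RPKM) and Bvht (8.31 to 19.7 RPKM), among others.

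The threshold of 1 RPKM fell in a dense part of the distribution. Just inside it were Gm13589 (1.01 ± 0.124 RPKM) and Gm27030 (1.03 ± 0.598), and just outside were 4632415L05Rik (0.987 ± 0.685) and Gm26699 (0.984 ± 0.515).

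Among the listed lincRNA genes with known roles, the highest level was that of Snhg6. Of the 17 listed host genes of small nucleolar RNAs, 4 were members by the rule, and all 4 had at least 0.5 RPKM. Snhg12 had 13.7 ± 2.71 RPKM and 17.3 ± 4.70 RPKM over its unshared exons, and Snhg20 had 2.72 ± 1.04 RPKM. Snhg18 and Snhg6 are given above. Of 11 listed microRNA hosts 6 were members and 2 reached 0.5 RPKM. These were Mir124a-1hg, host of a neuronal microRNA, at 1.71 ± 0.590 RPKM, and C130071C03Rik at 1.17 ± 0.562 RPKM. C130071C03Rik shared 79.9% of its bases, the largest overlap being with a transcript without a match in GENCODE M21. Over its 451 unshared bases it had 1.26 ± 0.572 RPKM. Mir124a-1hg shared 4.50% of its bases and had 3.03 ± 4.02 RPKM over its 135 unshared bases. Mir17hg, host of a cluster tied to proliferation, was at 0.393 ± 0.259 RPKM.

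Meg3 and Mirg, maternally expressed RNAs of 1 imprinted locus, were both present. Meg3 lay between 3.62 and 4.40 RPKM in all 6 libraries (mean 4.09 ± 0.309) and shared 9.09% of its bases with other genes. The largest overlap was with Gm26906, a lincRNA gene annotated on the opposite strand. Over the unshared exons of Meg3, which spanned 1461 bases, the level was 8.07 ± 1.59 RPKM. Mirg was at 0.556 ± 0.163 RPKM. Of the X-linked list, Xist, the RNA that coats the inactive X chromosome, had 2.37 ± 0.485 RPKM, and Ftx, from the same locus, 0.758 ± 0.497. Xist shared 12.5% of its bases with other genes, Tsix among them. It kept 1.95 ± 1.12 RPKM over its unshared exons, which spanned 525 of its 17769 exonic bases. The sex of the pooled embryos is given as unknown.

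Of the growth and genome stability list, Epb41l4aos and Pvt1 reached 0.5 RPKM, with Pvt1, a neighbour of Myc, at 2.52 ± 1.05 RPKM. Of the neural list, 1700020I14Rik had 5.60 ± 0.632 RPKM and Lhx1os 6.32 ± 2.89 RPKM (6.501 over its 534 unshared bases). Bvht was the only member of the developmental list over 0.5 RPKM, while Hotair, transcribed from the Hoxc cluster, had 0.331 ± 0.233 RPKM. The lists held no member without tags.

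Next to genes of developmental regulators, 26 lincRNA genes lay within 10 kb of a gene of the Hox, Sox, Pou, Lhx, Tbx, Fox, Neurod, Irx and other transcription factor families or of a ganglion marker, and 5 of them had at least 1 RPKM. D930028M14Rik, within the body of Pou2f2, and Gm26735, which overlaps Sox4, are described above. Sox4 was at 16.4 ± 2.76 RPKM, below Gm26735 in all 6 libraries, but these genes share bases and therefore tags. Lhx1os starts 149 bases from Lhx1, a LIM-homeobox gene, in the opposite direction. Over all exons it had 6.79, 7.88 and 7.46 RPKM in the high-volume libraries of 3, 10 and 30 ng, and 1.09, 5.29 and 9.40 RPKM in the low-volume libraries. Lhx1 itself was at 0.635 ± 0.205 RPKM, and the lincRNA was above it in all 6 libraries.

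Gm12688 starts 1316 bases from Foxd3, a transcription factor gene of neural crest and glia. It had 1.41 ± 0.668 RPKM against 0.353 ± 0.216 for Foxd3, and was again the higher in 6 of 6 libraries. The order was the opposite for Gm53, 6759 bases from the body of Hoxb9, at 1.32 ± 0.729 RPKM against 6.41 ± 1.82, and for Tbx3os2, at 0.493 ± 0.380 RPKM against 2.37 ± 0.612 for Tbx3. In both pairs the coding gene was the higher in 6 of 6 libraries. Gm16225, 205 bases from Runx3, a factor of proprioceptive neurons, had 3.74 RPKM in the high-volume 3 ng library from 16 tags, and 0 to 0.499 RPKM in the other 5.

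A larger share of divergent lincRNAs than of other separate ones had tags. Of the separate genes, 121 started within 1000 bases of the start of their nearest protein-coding gene and ran away from it. Of these, 90.1% had a tag and 12.4% reached 1 RPKM, against 57.8% and 5.67% of the other 988 separate genes. The protein-coding neighbours of the divergent genes had a median of 3.51 RPKM and those of the other genes 2.22 RPKM, and no test was made of these shares. The median of the divergent lincRNAs was 0.123 RPKM.

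In 96 of the 121 pairs the protein-coding gene was above the lincRNA in all 6 libraries, and in 6 pairs the lincRNA was above in all 6. A330069E16Rik starts 164 bases from Ddb2, a DNA repair gene, and had 14.8 ± 2.24 RPKM against 3.50 ± 1.38. Snhg18, 148 bases from the axon guidance gene Sema5a, had 14.4 ± 2.43 RPKM against 0.944 ± 0.185. Gm2694, 235 bases from Cbln1, a gene of a secreted synapse organiser, had 11.1 ± 1.04 RPKM against 0.994 ± 0.700. The remaining pairs of this kind, A430046D13Rik with Myl6b (1.67 against 0.727 RPKM), 5033430I15Rik with Atxn1 (1.29 against 0.488 RPKM) and F630040K05Rik with 1600014C23Rik, were lower.

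**Figure D3:**
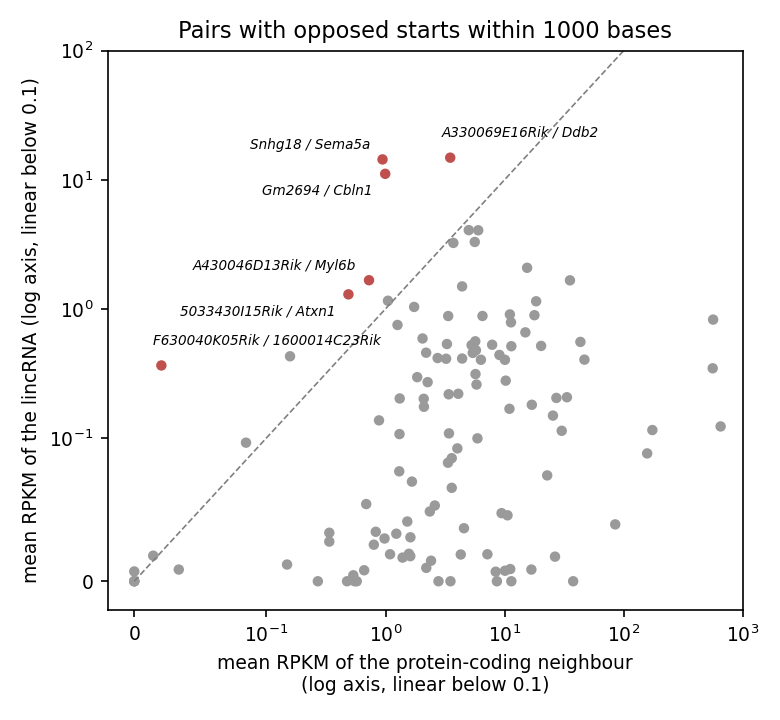
Mean RPKM over 6 libraries of 121 separate lincRNA genes (vertical axis) against that of the protein-coding gene whose start lies within 1000 bases in the opposite direction (horizontal axis), both on log scales that are linear below 0.1. Red points are the 6 pairs in which the lincRNA was the higher in every library, and the dashed line marks equal levels. Most points lie below the line.

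Over all genes with a tag, the level of a lincRNA told little of that of its nearest protein-coding gene. Spearman's rho across 1070 pairs was 0.0536, as a description over genes that share libraries. It was 0.286 over the 334 pairs whose lincRNA shared exonic bases with some gene, and -0.0142 over the 736 without. Within the 109 divergent separate pairs with a tag it was 0.241. Genes that share bases also share tags, so the value of 0.286 is not independent of the overlap.

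Introns of the abundant separate lincRNAs were mostly near empty. They could be measured for 46 separate genes of at least 1 RPKM whose body met no other gene. Their median intron level was 1.43% of the exon level, against 0.903% for 11118 protein-coding genes. The protein-coding genes, also of at least 1 RPKM, were not limited to bodies free of other genes, so the sets are unlike. For 36 of the 46 lincRNA genes the intron level was under 10% of the exon level, as in Gm17750 with 0.0268 RPKM in 38947 intronic bases. Only Gm17586, divergent from Mafg, and 5033430I15Rik exceeded 50%, at 55.5% and 65.9%.

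A polyadenylation signal in the last 50 bases was found in 36 of 58 separate lincRNA transcripts of at least 1 RPKM (62.1%) whose sequence could be read. The share was 46.0% of 731 separate transcripts under 0.1 RPKM, 45.5% of all 1448 lincRNA transcripts read, 79.5% of protein-coding transcripts of at least 1 RPKM and 42.3% of all 28508 transcripts. AATAAA and ATTAAA were searched on the transcript strand. A run of at least 10 A was present in 10.3% of the 58 and in 7.92% of all transcripts.

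Promoters in RefSeq's table, 250 bases before to 50 after a start, were matched for 692 lincRNA genes. GGGCGG on either strand was in 52 of the 75 promoters of divergent separate genes (69.3%), in 19.7% of the 834 promoters of all lincRNA genes matched and in 35.7% of all 32851 promoters. These windows can reach into the coding neighbour's own promoter, so both starts share them. TATAAA was in 6.67% of the 75 and 13.6% of all promoters, and CCAAT in 37.3% and 37.4%. A match is a description of letters and no evidence that a factor binds.

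Fewer lincRNAs were detected at 3 ng than at 10 or 30 ng. With all libraries thinned to the depth of the shallowest, the expected number of lincRNA genes with at least 5 tags was 374 and 356.8 at 3 ng (high and low volume), 455.4 and 446.5 at 10 ng, and 457.7 and 443.4 at 30 ng. Both 3 ng libraries were thus below all 4 others, a comparison of 2 against 4 in which the smallest exact permutation p is 0.0667. The numbers without thinning were 374 and 365 at 3 ng and 540 to 580 in the other 4 libraries. At each input the low volume was the lower after thinning.

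**Figure D4:**
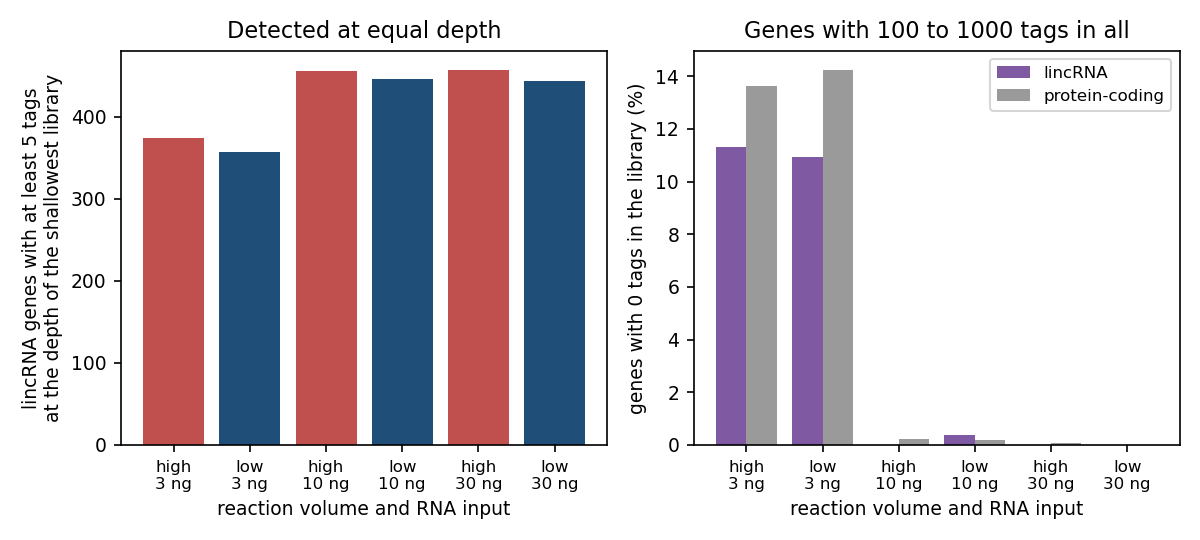
Left, lincRNA genes with at least 5 tags in each library at the depth of the shallowest library, with high-volume libraries in red and low-volume in blue. Right, percent of genes with 0 tags in each library among genes with 100 to 1000 tags over all libraries, for 256 lincRNA genes (purple) and 4230 protein-coding genes (grey). Genes without tags in that range are nearly all in the 3 ng libraries, in both classes.

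Genes without tags at 3 ng were found in both classes. Of the 256 lincRNA genes with 100 to 1000 tags in all, 11.3% and 10.9% had 0 tags in the high-volume and low-volume 3 ng libraries, against 13.6% and 14.3% of 4230 protein-coding genes. At 10 and 30 ng these shares were at most 0.391%. Among the 256, 51 genes were without tags in 1 of the 3 ng libraries and 3 (1.17%) in both (Gm26603, Gm16046 and A430105J06Rik). Among the 4230 protein-coding genes these numbers were 857 and 161 (3.81%). Among separate genes, 143 had tags in both 3 ng libraries and 136 in 1 only, against 411 and 192 at 30 ng. These counts were not thinned, so they also reflect the lower depth at 3 ng. After thinning, the expected number of separate genes with a tag was 212 and 208.4 at 3 ng (high and low volume). At 30 ng it was 445.9 and 436.4. All 11 of the separate genes of at least 1 RPKM that had 0 tags in some library had them in a 3 ng library. Gm12371, which starts 1219 bases from Lingo2, had 48 tags in the high-volume and 0 in the low-volume 3 ng library, against 88 to 154 tags in the other 4.

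The test of reaction volume covered the 412 lincRNA genes that passed the filter on low counts, 16120 genes in all. Of the lincRNA genes 1 was called, Gm42418, which was also the only gene called of all (0.0062% of the genes tested). Its RPKM was 52031, 39799 and 45902 in the high-volume libraries of 3, 10 and 30 ng, and 16170, 17826 and 17664 in the low-volume libraries, so the groups were far apart. The log2 difference, high minus low volume, was 1.56 ± 0.107 (SE, adjusted p = 0.0142, edgeR quasi-likelihood test). The call was lost without the low-volume 3 ng library (1.44, adjusted p = 0.111, edgeR). It was also lost with the input amount as a block (1.55, adjusted p = 0.250, edgeR), where 0 genes were called. Gm42418 took 8.02% to 10.4% of all tags in the high volume and 3.15% to 3.53% in the low volume.

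Since that gene overlaps an annotated ribosomal RNA gene, the other lincRNAs were also summed alone. All lincRNA genes took 8.33% to 10.7% of tags in the high volume and 3.47% to 3.86% in the low volume. With Gm42418 set aside they took 0.311% to 0.342% of the remaining tags in the high volume and 0.328% to 0.338% in the low volume, and the groups overlapped. Gm26917, which lies next to Gm42418 on chromosome 17, had 214.4 RPKM in the high-volume 3 ng library and 8.52 to 26.4 RPKM in the other 5. Its log2 difference was 2.04 ± 0.744 (adjusted p = 0.715, edgeR), 0.93 without that library and 1.13 without both 3 ng libraries.

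The next adjusted p of a lincRNA gene was 0.690 (edgeR), for Xist. At an unadjusted p under 0.05 there were 6 lincRNA genes (1.46%), 5 of them higher in the high volume, against 6.67% of all genes. Separation of the groups was also counted by CPM, tags relative to the library total. The high-volume values were all above the low-volume values for 16 lincRNA genes (3.88%, against 4.56% of all genes) and all below for 27 (6.55%, against 13.3%). That total includes Gm42418, whose larger share in the high volume lowers the CPM of all other genes there. How far this shifted the counts was not tested. The median log2 difference of the 412 was 0.0364, against 0.0178 over all genes, and their median SE was 0.797, against 0.332. DESeq2 called 182 genes (1.13%), of which Gm42418 was the only lincRNA.

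The libraries of 10 and 30 ng alone gave 278 calls over all genes (1.68%), again with Gm42418 as the only lincRNA. Its log2 difference in those libraries was 1.40.

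Among genes whose groups did not overlap, those with the largest fitted differences were sparsely covered. On the higher side they were Gm26917, Zfp469 (1.8 ± 0.75), Gm26752 (1.71 ± 1.21) and Gm27042 (1.64 ± 1.29), in log2 units with SE. On the lower side they were Gm13166 (-2.30 ± 1.24), 2610037D02Rik (-1.53 ± 1.24), A830052D11Rik (-1.53 ± 1.16) and Mir17hg (-1.38 ± 1.28). None passed the test, and most of these differences rested on a 3 ng library. Gm26752 and Gm27042 had 0 tags in the low-volume 3 ng library, and their differences were 0.98 and 0.58 without it. In the high-volume 3 ng library Gm13166, 2610037D02Rik and Mir17hg had 0 tags and A830052D11Rik had 1. Without that library the differences were -1.68 (Gm13166), -0.57 (2610037D02Rik), -0.37 (Mir17hg) and -0.46 (A830052D11Rik). Without both 3 ng libraries they were -1.76, -0.55, -0.23 and -0.32 in the same order, 1.14 for Gm26752, 0.54 for Gm27042 and 1.45 for Zfp469. Apart from Gm26917 these genes held 80 to 211 tags in all 6 libraries together. Zfp469, Gm27042 and A830052D11Rik were separate, while the others shared exonic bases or 50-base words with other genes. Gm26752 shared 765 of its 1537 bases with the protein-coding gene Ppp1r14c, and its unshared exons held no tags. Of the 50-base words of Gm13166, 73.6% were in transcripts of other genes. Zfp469, a protein-coding gene in RefSeq, had 0.483, 0.691 and 0.588 RPKM in the high volume at 3, 10 and 30 ng, and 0.096, 0.190 and 0.325 RPKM in the low volume. Xist had 2.61, 2.91 and 2.54 RPKM in the high volume and 1.52, 2.13 and 2.52 RPKM in the low volume (0.56 ± 0.190). Meg3, with 4.25, 4.40 and 4.39 against 3.62, 3.98 and 3.92 RPKM, had a log2 difference of 0.33 ± 0.124 (adjusted p = 0.744, edgeR).

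**Figure D5:**
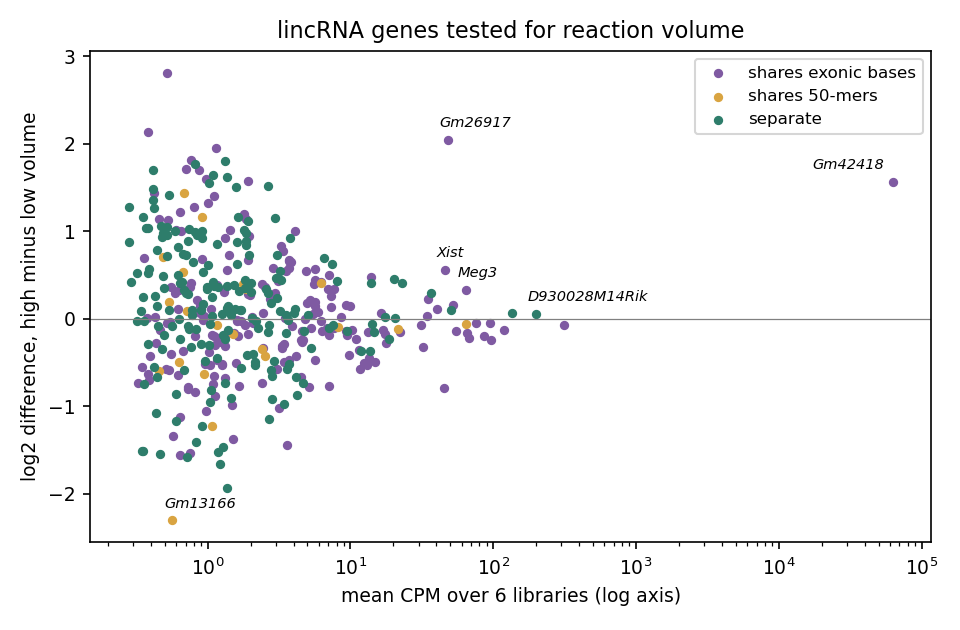
Fitted log2 difference, high minus low volume (vertical axis), against mean CPM over 6 libraries (tags relative to the library total, log axis) for the 412 lincRNA genes tested, coloured by whether the transcript shares exonic bases, shares 50-base words or is separate. Differences spread widely at low CPM. Gm42418, at the far right, is the only gene of these past the threshold.

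The same model gave the slope per doubling of RNA input. No gene was called (0% of the genes tested), and the lowest adjusted p of a lincRNA was 0.625 (edgeR). Unadjusted p-values under 0.05 were found for 17 lincRNA genes (4.13%), 8 of them with a rising slope, against 7.77% of all genes. The median slope was 0.0762 log2 units for lincRNA genes and 0.0211 for all genes. Without the 3 ng libraries it was 0.0082 for lincRNA genes and 0.0094 for all genes. DESeq2 called 44 genes (0.273%), of which Gm26870 was the only lincRNA. That gene, chosen here after its values were seen, had 8.82 and 5.07 RPKM in the high-volume and low-volume 3 ng libraries and 0.490 to 0.710 RPKM in the other 4, and shared bases with Gm10715. Its slope was -1.09 ± 0.282 (adjusted p = 0.0447) by DESeq2 and -1.08 (adjusted p = 0.625) by edgeR.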

How the data were processed

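The 6 RNA sequencing libraries were processed by the submitters with CASAVA 1.8, TopHat2 2.0.8 and Bowtie2 2.1.0 on the GRCm38.p1 build, per the submitters' processing notes. No source used here names the counting program or the annotation release. The deposited files give whole-number tag counts and, per the file headers, the authors' RPKM for each transcript, exon and intron. Transcripts were assigned to genes by GENCODE M21, and 3951 of 93615 found no match. Exons were intersected with bedtools 2.31.1, without regard to strand. Counts of 16120 genes that passed filterByExpr were tested with edgeR 4.0.16 (quasi-likelihood test, TMM scaling, reaction volume and centred log2 input, 3 residual degrees of freedom, Benjamini-Hochberg threshold 0.05) in R 4.3.3. DESeq2 1.42.0 was an alternative. SEs were derived from the F statistic. On simulated counts of 15563 genes with this design, the test recovered 34 of 94 genes changed by 1 log2 unit and 61 of 93 changed by 2, with 4 false calls. The simulated spread followed the fitted trend alone, without gene-specific spread or added counts of 0 at 3 ng. Changed genes were drawn from all genes, whose median SE was 0.332, against 0.797 for lincRNA genes. The recovery therefore does not stand for lincRNA genes. CPM values relate tags to the library's total over the chosen transcripts. Tags carry no molecular identifiers, so floors cover counting error only. Depth per library was 14160397 to 31524210 tags.

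Genes were named by rule: the 15 with the highest mean RPKM, those past the threshold, the 4 highest and 4 lowest volume differences without overlap between groups, listed genes of at least 0.5 RPKM, and neighbours of marker and regulator genes within 10 kb. 1 gene that the rule names is not reported here. The members and lists were chosen with earlier results of these data known. Alternatives were other scalings, filters, transcripts and tests, a block by input amount, and each library left out.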

Additional observations from a re-analysis of the deposited data

Results flagged for a closer look

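Transcripts that GENCODE M21 does not hold, 3951 in number, carried 2.62% of the tags over all transcripts. They enter none of the comparisons above, and tags were present on 2583 of them.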

How the results depend on the processing

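Depth limits these values, since 658 lincRNA genes with tags had too few to be tested. The volumes share input amounts, by which libraries could be paired. Deviations of same-input libraries from their volume's mean correlated at 0.0768 (3 ng), 0.104 (10 ng) and 0.0656 (30 ng), below 0.1 in 2 of 3, although each library correlated best with that of its own input. With the replicate block by input amount, 0 genes and 0 lincRNA genes were called for volume, and Gm42418 kept a log2 difference of 1.55 (adjusted p = 0.250, edgeR, the highest of its alternatives, with 3.95e-33 by DESeq2 the lowest).

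For volume, calls over all genes were 1 as reported, 11 without a filter on low counts, 278 in the 10 and 30 ng libraries, 182 with DESeq2, and 0 to 2 with 1 library left out. LincRNA calls were 1 in these settings, and 0 to 1 with 1 library left out. For input, calls over all genes were 0, but 2 without a filter and 44 with DESeq2, which also called 1 lincRNA gene. With 1 library left out there were 0 calls of either kind for input.

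The median lincRNA volume difference of 0.0364 changed sign with the setting. It was -0.0825 with total-count scaling (all genes -0.10), 0.0882 without a filter, -0.0205 with CPM of at least 1 in 3 libraries, 0.10 without shared exonic bases, 0.11 for separate genes, and -0.0781 to 0.16 with 1 library left out. The median input slope of 0.0762 was 0.0674 with DESeq2 size factors and 0.0749 for the longest transcript. It was 0.34 without a filter, 0.0415 with CPM of at least 1 in 3 libraries, 0.0082 without the 3 ng libraries, 0.14 for separate genes, and 0.0637 to 0.12 with 1 library left out.

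The number of lincRNA genes of at least 1 RPKM, 186, was 304 at 0.5 RPKM, 112 at 2 RPKM, 81 without shared exonic bases, 71 for separate genes, 116 over unshared exons and 187 to 195 with 1 library left out. The 116 leave out every gene without an unshared exon. Spearman's rho of 0.0536 was 0.0147 from 0.1 RPKM, 0.204 for neighbours within 10 kb and -0.0142 without shared exonic bases. The 12 lincRNA genes whose volume difference was recomputed kept its sign in every setting that could test them, but sizes moved with 1 library left out: Gm13166 -4.26 to -1.68, 2610037D02Rik -2.65 to -0.57, A830052D11Rik -2.71 to -0.46, Mir17hg -2.48 to -0.37, Gm26752 0.98 to 3.26, Gm27042 0.58 to 2.86 and Gm26917 0.93 to 3.01. The values for separate genes and unshared exons, and the slope without the 3 ng libraries, were added after seeing the data. The causes were not tested.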
